A study of Mus musculus with 24 samples.

Results

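The genes described here are 8 genes of the DNA damage checkpoint and of homologous recombination, measured by RNA-seq in mouse oocytes grown in culture. They were chosen by name (Trp63, Trp53, Atm, Atr, Chek1, Chek2, Brca1 and Brca2) and not by their values, out of 16572 gene names in the expression table. Each of the 8 names had 1 row in the table, and all 8 passed the filter on low values (a mean of at least 1 RPM, the reads of a gene scaled to the depth of the column).

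ATM and ATR are the kinases at the top of the checkpoint. ATM responds to double-strand breaks and acts through CHK2 (Chek2), and ATR responds to single-stranded DNA and acts through CHK1 (Chek1). p53 (Trp53) and p63 (Trp63) are transcription factors of the same family downstream of these kinases, and in the resting oocyte it is an isoform of p63 that is held inactive and, once phosphorylated by CHK2 and casein kinase 1, drives the death of a damaged cell. BRCA1 and BRCA2 act in homologous recombination, the repair of a break by copying from an intact template.

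The oocytes came from dissociated ovaries of 7-day-old mice, whose strain is labelled C57BL/6 Barb (the study's methods describe C57 Black6 mice bred with SV129), and grew on gelatine-coated plates without follicles. Class IV is the largest size class, labelled 60 to 70 µm in both conditions, although the study's text gives a smaller range for 20% oxygen. IV 5% O2 oocytes were kept for 9 days in 5% oxygen and IV 20% O2 oocytes for 14 days in 20% oxygen, with no drug in either. By the study's methods the medium was also changed more often in 5% oxygen. Oxygen, time in culture, change of medium and the size collected therefore cannot be told apart. Each condition had 2 RNA-seq libraries from pooled oocytes, and the table used here holds 1 value per gene and condition. No difference below therefore has a replicate check. The interval given with a fold is an exact 95% Clopper-Pearson interval for the read counts of the columns compared, which covers counting error only and compares these libraries rather than the conditions.

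The values came back as whole reads for 99.9% of genes in both columns (within 0.05 of a read), out of 132185260 reads for IV 5% O2 and 40875358 for IV 20% O2. The members had between 370 and 58708 reads per column, so counting error was small for each of them. Over the 14704 genes tested, the median log2 difference (IV 5% O2 minus IV 20% O2, on log2(RPM + 1)) was 0.26 and not 0, and 62.6% of genes were higher in IV 5% O2. The differences of the members and the medians of gene lists are therefore also given relative to this median gene, while the log2 differences of other single genes are as deposited and hold this shift. All 14 oocyte markers were present, with a summed level of 10516 RPM for IV 5% O2 against 14315 RPM for IV 20% O2. Theca and stroma markers summed to 40.3 RPM for IV 5% O2 against 3.18 RPM for IV 20% O2 (9 of 14 in the table, Vim, Dcn and Col1a2 without a read in IV 20% O2), and granulosa markers to 41.3 and 29.8 RPM (6 of 11 in the table, without Amh and Foxl2). The macrophage markers in the table, 3 of 7, summed to 17.9 and 21.1 RPM. The part of these other cells in the members' values was not tested, and in pooled oocytes fewer cells of a type cannot be told apart from less RNA per cell.

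All 8 genes were detected in both conditions and none was 2-fold or more apart. In every count, at least 2-fold means a difference of at least 1 on log2(RPM + 1), which for low genes asks for more than a 2-fold ratio of RPM. None of the members was at least 2-fold higher in IV 5% O2, against 18.7% of all genes tested, and none was at least 2-fold lower, against 9.22%. Chek2 stood highest in IV 5% O2 relative to IV 20% O2 and Atr lowest, with a median of 0.17 over the 8 genes on the log2 scale. The members' differences lay between the 14.7th and the 76.8th percentile of all genes tested. Atm, Atr and Trp53 were lower in IV 5% O2, Chek1 and Chek2 were higher, and Trp63, Brca1 and Brca2 were close to the median gene.

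**Figure D1:**
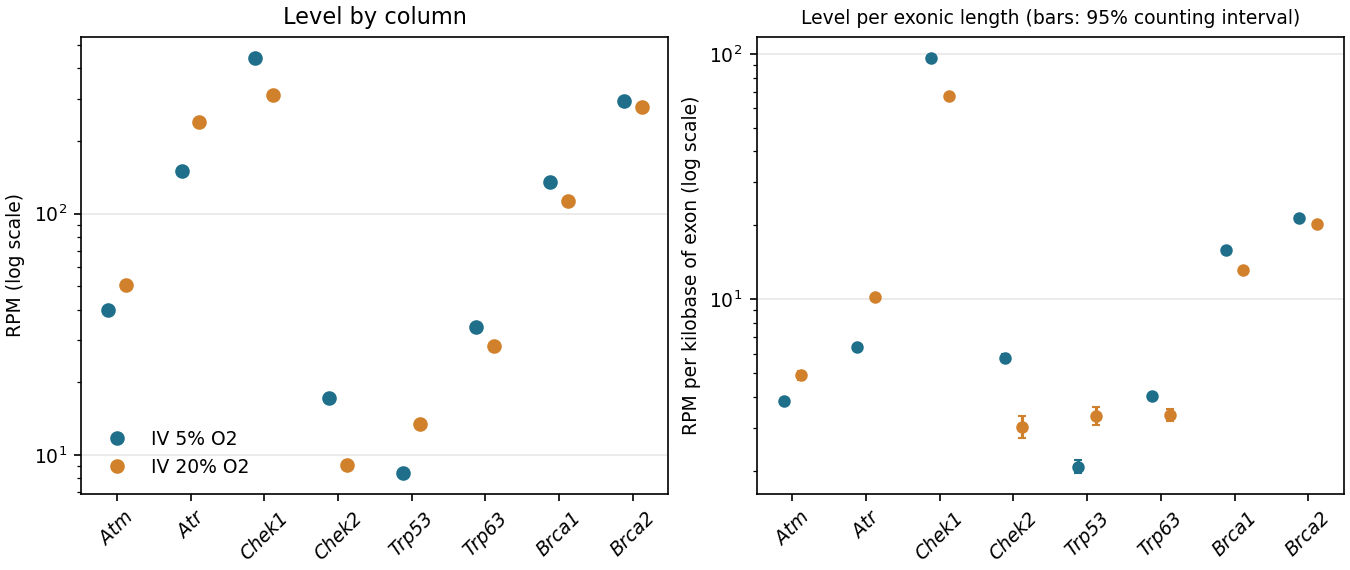
Level of each of the 8 genes in IV 5% O2 and IV 20% O2 oocytes, as RPM on a log axis (left) and as RPM per kilobase of exon on a log axis with 95% counting intervals as bars (right), with 1 point per condition. Chek1 is the top gene of the right panel in both conditions (95.8 and 67.2), and the lowest is Trp53 in IV 5% O2 (2.08) and Chek2 in IV 20% O2 (3.02).

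Levels were compared between genes per kilobase of merged exon. In IV 5% O2, Chek1 was the highest at 95.8 RPM per kilobase, followed by Brca2 at 21.5, Brca1 at 15.8, Atr at 6.37, Chek2 at 5.76, Trp63 at 4.04, Atm at 3.86 and Trp53 at 2.08. Trp63 and Atm were the neighbours in that order whose counting intervals overlapped. In IV 20% O2 the order began in the same way, with Chek1 at 67.2, Brca2 at 20.2, Brca1 at 13.2 and Atr at 10.2 RPM per kilobase, and went on with Atm at 4.90, Trp63 at 3.38, Trp53 at 3.33 and Chek2 at 3.02. Of those last 3 genes, the interval of each overlapped that of the next. The highest member stood 46.1 times above the lowest in IV 5% O2 and 22.3 times in IV 20% O2. Chek1 ranked at the 98th percentile of all genes with a length in IV 5% O2 and at the 96.9th in IV 20% O2. The place of Atr depended on its length, because its merged exons span 23629 bases and its longest annotated transcript 8102 bases: with the longest transcript of each gene, Atr moved up to 29.7 RPM per kilobase and from rank 4 to rank 2 in IV 20% O2, and kept rank 4 in IV 5% O2. The lower ranks of IV 20% O2 also depended on the length, with Trp63 at 5.29, Atm at 5.16, Trp53 at 4.12 and Chek2 at 3.98 per kilobase of the longest transcript.

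The kinases that detect damage were both lower in IV 5% O2. Atr (GRCm38 chr9:95857597-95951781, plus strand) was listed at 151 RPM for IV 5% O2 against 241 RPM for IV 20% O2, from 19902 and 9847 reads. IV 20% O2 was the higher condition by 1.60-fold (1.56 to 1.64), and the log2 difference of -0.67 was the lowest of the 8 genes and stood at -0.93 relative to the median gene. Atm (chr9:53439149-53536740, minus strand) was at 39.9 RPM for IV 5% O2 against 50.7 RPM for IV 20% O2. This was 1.27-fold lower in IV 5% O2 (1.21 to 1.34), a log2 difference of -0.34 and, relative to the median gene, -0.60. Per kilobase of merged exon, the ratio of Atr to Atm was 1.65 in IV 5% O2 and 2.08 in IV 20% O2, and with the longest transcripts it was 4.57 and 5.76.

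The effector kinases were both higher in IV 5% O2. Chek1 (chr9:36708482-36727065, minus strand) was at 444 RPM for IV 5% O2 against 312 RPM for IV 20% O2, from 58708 and 12741 reads. IV 5% O2 was higher by 1.42-fold (1.40 to 1.45), a log2 difference of 0.51 and 0.25 above the median gene. Chek2 (chr5:110839979-110874145, plus strand) was at 17.3 RPM for IV 5% O2 against 9.05 RPM for IV 20% O2, from 2285 and 370 reads. It had the largest fold of the 8 genes, 1.91 (1.71 to 2.14), and the interval reached past 2-fold. The log2 difference of Chek2 was 0.86, which was 0.61 above the median gene and at the 76.8th percentile of all genes tested. Of the 50-base windows in the exons of Chek2, 8.04% also occurred elsewhere in the genome, the highest share among the members (3.31% of 100-base windows, the length of a read). Chek1 was 16.6 times Chek2 per kilobase of exon in IV 5% O2 and 22.3 times in IV 20% O2. Along each pair, the detecting kinase was thus the lower and its effector the higher in IV 5% O2: Atr and Chek1 differed in sign, and so did Atm and Chek2.

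The p53 family members differed from each other. Trp53 (chr11:69580359-69591873, plus strand) was the lowest member in IV 5% O2, with 8.40 RPM there and 13.5 RPM in IV 20% O2, from 1111 and 551 reads. It was 1.60-fold lower in IV 5% O2 (1.45 to 1.78), a log2 difference of -0.62 and -0.88 relative to the median gene. Trp63 (chr16:25683763-25892102, plus strand), the family member that guards the resting oocyte, was at 33.9 RPM for IV 5% O2 against 28.4 RPM for IV 20% O2, from 4476 and 1161 reads. Its ratio was 1.19 (1.12 to 1.27), its log2 difference was 0.25 as deposited and -0.06 with median-ratio scaling, and relative to the median gene it was -0.01. Trp63 stood at the 49.4th percentile of all differences, while Trp53 stood at the 15.9th. Per kilobase of exon, Trp63 was 1.94 times Trp53 in IV 5% O2, and in IV 20% O2 the ratio was 1.02 with overlapping intervals (2.46 and 1.29 with the longest transcripts). The reads were summed over all transcripts of a gene, so the isoforms of Trp63 with and without the activation domain were not separated.

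The genes of homologous recombination were abundant and nearly level between the conditions. Brca1 (chr11:101488764-101551955, minus strand) was at 135 RPM for IV 5% O2 against 113 RPM for IV 20% O2, from 17833 and 4603 reads. Its ratio of 1.20 (1.16 to 1.24) corresponded to a log2 difference of 0.26 as deposited and -0.06 with median-ratio scaling, equal to that of the median gene (0.00). Brca2 (chr5:150522630-150570329, plus strand) was at 293 RPM for IV 5% O2 against 276 RPM for IV 20% O2, from 38788 and 11275 reads. With a ratio of 1.06 (1.04 to 1.09) it had the smallest log2 difference of the 8 genes, 0.09 as deposited, and the sign turned with median-ratio scaling (-0.23), quantile normalization (-0.15) and scaling to the reads on genes (-0.10). Per kilobase of exon, Brca2 was 1.36 times Brca1 in IV 5% O2 and 1.53 times in IV 20% O2.

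**Figure D2:**
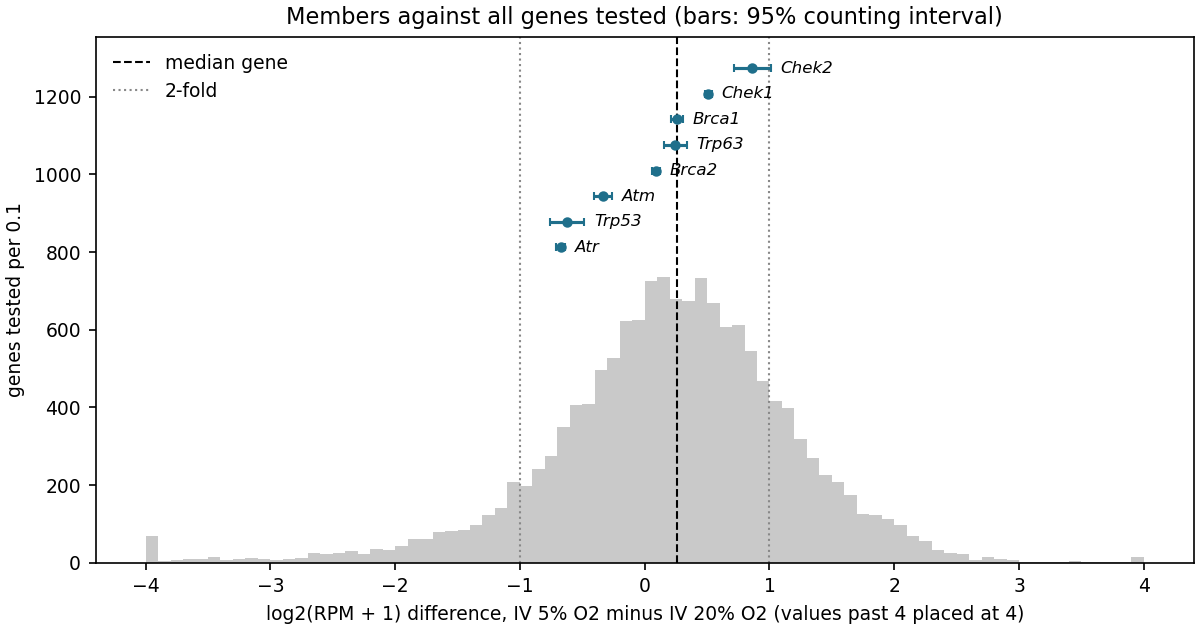
Histogram of the log2(RPM + 1) difference, IV 5% O2 minus IV 20% O2, over 14704 genes tested (y axis: genes per 0.1; values past 4 placed at 4), with the 8 members as points placed above it at arbitrary heights and 95% counting intervals as bars. All 8 points lie between the dotted 2-fold lines, Atr (-0.67), Trp53 (-0.62) and Atm (-0.34) below 0 and Chek2 (0.86) farthest above the dashed line of the median gene (0.26).

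Of the 8 genes, 4 begin head to head with a protein-coding neighbour on the other strand, with less than 1000 bases between the starts. The rule for these neighbours was chosen after the table was opened, and the neighbours are no members. Wrap53, which starts 103 bases from Trp53 and codes for a protein of telomerase assembly, was at 6.37 RPM for IV 5% O2 against 4.45 RPM for IV 20% O2, a log2 difference of 0.43 beside -0.62 for Trp53. Hscb, a gene for a co-chaperone of iron-sulphur cluster assembly 201 bases from Chek2, was at 11.2 and 29.0 RPM, a log2 difference of -1.30 beside 0.86 for Chek2. These pairs had opposite signs. Npat, a regulator of histone genes 306 bases from Atm, was at 29.1 and 38.3 RPM (-0.38 beside -0.34 for Atm), and Nbr1, an autophagy receptor 193 bases from Brca1, was at 274 and 161 RPM (0.76 beside 0.26 for Brca1). The stretches between the starts of Trp53, Chek2 and Brca1 and their neighbours are shown because both genes of the pair begin at their edges, and those of Trp53 and Chek2 lie between genes of opposite sign. They were read from GRCm38, each 5′ to 3′ on the strand of the member, at chr11:69580256-69580358 (plus strand), chr5:110839778-110839978 (plus strand) and chr11:101551956-101552148 (minus strand). Capitals mark CCAAT and the E2F letters TTTCCCGC, TTTCGCGC, TTTGCCGC and TTTGGCGC, searched on both strands.
Trp53: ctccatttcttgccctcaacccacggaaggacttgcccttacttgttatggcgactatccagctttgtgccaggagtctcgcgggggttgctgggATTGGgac
Chek2: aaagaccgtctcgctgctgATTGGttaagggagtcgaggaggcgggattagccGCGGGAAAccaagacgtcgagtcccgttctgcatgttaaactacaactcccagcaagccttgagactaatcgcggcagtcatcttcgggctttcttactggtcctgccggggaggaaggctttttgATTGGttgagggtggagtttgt
Brca1: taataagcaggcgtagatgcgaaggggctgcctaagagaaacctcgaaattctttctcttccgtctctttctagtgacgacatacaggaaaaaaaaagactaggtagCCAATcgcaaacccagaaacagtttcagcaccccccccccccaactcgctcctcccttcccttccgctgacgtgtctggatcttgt

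The CCAAT letters occurred in all 3 stretches, once each beside Trp53 and Brca1 and at 2 places beside Chek2. Among the 32851 RefSeq promoters of GRCm38.p6, cut to the same length upstream of the start, 19.2% held CCAAT at the length of the Trp53 stretch, 29.5% at that of Chek2 and 28.7% at that of Brca1. The E2F letters, bound by factors of the cell cycle, were found beside Chek2 and in 1.60% of promoters of that length. Of the 250 bases upstream of the 7 members with a promoter in the RefSeq set, CCAAT occurred in 4 (Atm, Brca1, Chek2 and Trp53) and E2F letters in 2 (Brca2 and Chek2), beside 33.9% and 1.86% of all promoters.

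The 12 direct partners of the members, from a list of textbook roles, ranged from -2.52 to 0.98 on the log2 scale, beside -0.67 to 0.86 for the members. Of these 12, 8 were higher and 4 lower in IV 5% O2. None was 2-fold or more higher and 2 (16.7%) were 2-fold or more lower, beside 18.7% and 9.22% of all genes. The median log2 difference of the partners was 0.26 as deposited (0.00 relative to the median gene) and -0.06 with median-ratio scaling. The lowest was Sem1, a small protein that binds BRCA2 and is also a subunit of the proteasome, at 14.9 RPM for IV 5% O2 against 90.4 RPM for IV 20% O2, 6.05-fold lower (5.73 to 6.39). Beside it Brca2 itself was nearly level. Palb2, which bridges BRCA1 and BRCA2, was at 93.8 and 78.5 RPM, with a log2 difference of 0.25 as deposited and -0.06 with median-ratio scaling.

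The partners of BRCA1 were closer to each other. Bard1, which forms the ubiquitin ligase with BRCA1, was at 29.1 RPM for IV 5% O2 against 31.5 RPM for IV 20% O2 (log2 difference -0.11). Brip1, a helicase bound by BRCA1, was at 91.9 and 46.1 RPM, a ratio of 1.99 (1.90 to 2.09). Rbbp8 (CtIP), which starts the resection of broken ends with BRCA1, was at 59.8 and 44.8 RPM (0.41).

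The proteins that bring ATR to DNA and switch it on were nearer to the median gene than Atr itself. Atrip, the obligate partner of ATR, was at 24.5 RPM for IV 5% O2 against 19.2 RPM for IV 20% O2, a log2 difference of 0.34 beside -0.67 for Atr, and 16.04% of its exon bases are shared with Trex1 on the same strand. The activators of ATR, Topbp1 and Etaa1, differed by 0.26 and 0.22 on the log2 scale, both turning below 0 with median-ratio scaling (-0.06 and -0.10). Clspn (claspin), which hands the signal from ATR to CHK1, was at 156 and 105 RPM, a log2 difference of 0.57 beside 0.51 for Chek1.

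The inhibitors of p53 had opposite signs. Mdm2, the ubiquitin ligase that degrades p53 and is itself a p53 target, was at 160 RPM for IV 5% O2 against 96.8 RPM for IV 20% O2, 1.65-fold higher (1.60 to 1.71). Mdm4, its relative that masks the activation domain of p53, was at 520 and 764 RPM, 1.47-fold lower (1.45 to 1.49), beside the 1.60-fold of Trp53. Per kilobase of exon Mdm4 stood at 1.12 times Mdm2 in IV 5% O2 and at 2.71 times in IV 20% O2.

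**Figure D3:**
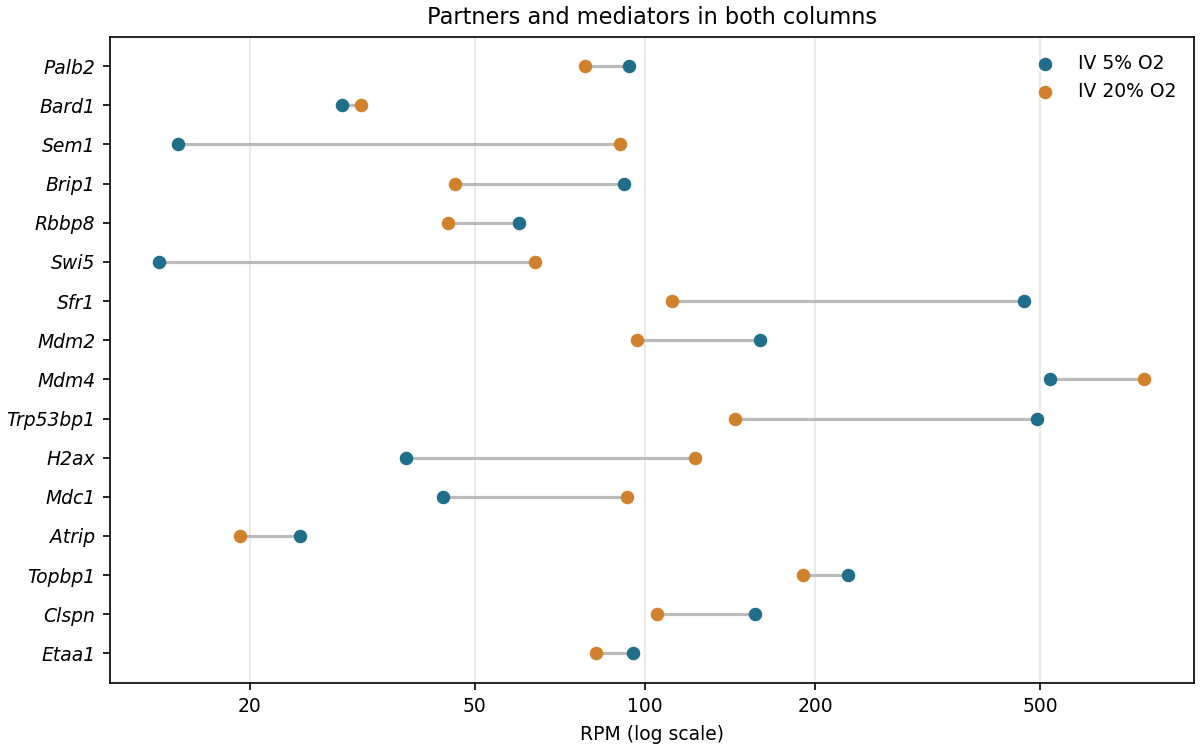
RPM on a log axis of partners and mediators of the members in IV 5% O2 and IV 20% O2, with 1 point per condition and a line joining the points of a gene. The long lines are those of Sem1 (14.9 and 90.4 RPM), Swi5 (13.8 and 63.9), Sfr1 (468 and 112), Trp53bp1 (494 and 144) and H2ax (37.8 and 123), and the short ones those of Bard1, Palb2, Topbp1 and Etaa1.

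The genes around Atm and Atr that sense breaks and pass on the signal held a share past 2-fold close to that of all genes. Of 25 genes of this list in the table, out of 26, 19 were higher and 6 lower in IV 5% O2, beside 62.6% higher over all genes, and 16 lay above and 9 below the median gene. Of these, 5 (20%) were at least 2-fold higher and 2 (8%) at least 2-fold lower, beside 18.7% and 9.22% of all genes, and the median was 0.57 as deposited (0.31 above the median gene) and 0.25 with median-ratio scaling. Trp53bp1, which binds broken ends and favours their joining, was at 494 RPM for IV 5% O2 against 144 RPM for IV 20% O2, 3.42-fold higher (3.33 to 3.51). Kat5, the acetyltransferase that activates ATM, was at 52.8 and 19.6 RPM, 2.69-fold higher (2.50 to 2.89), where Atm was lower. H2ax, the histone that ATM phosphorylates at a break, was at 37.8 and 123 RPM and Mdc1, the reader of that mark, at 44.0 and 93.1 RPM. These were 3.24-fold (3.12 to 3.37) and 2.12-fold (2.03 to 2.21) lower in IV 5% O2, on the same side as Atm and farther from 1. Between 10.2% and 15.0% of the exon bases of Trp53bp1, Kat5 and H2ax overlap a gene on the other strand. The libraries mark strand, and whether the counting used it is not given in the sources used here.

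Downstream of Chek1 and Chek2, the 10 effectors of the G2/M checkpoint had no gene past 2-fold, beside 18.7% of all genes higher and 9.22% lower. Of the 10, 7 were higher and 3 lower, with a median of 0.39 as deposited, 0.13 above the median gene. With median-ratio scaling this median was 0.08. Wee2, the oocyte kinase that holds CDK1 inactive, had the highest mean RPM of this list, at 651 RPM for IV 5% O2 against 369 RPM for IV 20% O2 (log2 difference 0.82).

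Among the 14 genes that control the p53 family, including the kinases of p63, 9 were higher and 5 lower in IV 5% O2. Of the 14, 3 (21.4%) were at least 2-fold higher and none at least 2-fold lower, beside 18.7% and 9.22% of all genes. The median of these 14 genes was 0.33 as deposited, 0.07 above the median gene, and 0.02 with median-ratio scaling. Csnk1e, a casein kinase 1 of the kind that completes the activation of p63 after CHK2, was at 522 RPM for IV 5% O2 against 132 RPM for IV 20% O2, 3.97-fold higher (3.86 to 4.08), where Trp63 was at the median gene. The other casein kinase 1 genes of the list, named after their values were seen, were Csnk1d at 86.5 and 111 RPM, 1.28-fold lower (1.24 to 1.33), and Csnk1a1 at 281 and 259 RPM, a log2 difference of 0.12. Of 22 tested p53 family targets (23 of 25 were in the table), 15 were higher and 7 lower. At least 2-fold higher were 4 (18.2%) and at least 2-fold lower 1 (4.55%), beside 18.7% and 9.22% of all genes. The median of the targets was 0.51 as deposited (0.26 above the median gene) and 0.23 with median-ratio scaling. The highest on log2(RPM + 1) were polo-like kinases, Plk3 with 7.51 and 0.685 RPM (993 and 28 reads, 10.97-fold, 7.54 to 16.6) and Plk2 with 17.6 and 3.43 RPM (5.13-fold, 4.33 to 6.13). Perp, a membrane protein of cell death and adhesion, was the lowest with 0.0757 and 3.16 RPM (10 and 129 reads). Trp53inp1, a stress-induced partner of p53, had the highest mean RPM of the tested targets, 206 and 136 RPM. Other targets that act in cell death, and the arrest gene Cdkn1a, are named after their values were seen, as is Ei24, a p53-induced gene of cell death that was lower in IV 5% O2 with a log2 difference of -0.65. Bbc3 (Puma) had 325 reads in IV 5% O2 and none in IV 20% O2, at least 27.1-fold higher by its lower counting limit. Set against the floor of 3 reads in the IV 20% O2 column the ratio was 33.5. Either is a larger ratio of RPM than those of Plk3 and Plk2. Pmaip1 (Noxa) had 348 and 34 reads, a ratio of 3.17 (2.22 to 4.64) with a log2 difference of 0.99, just short of the count of 2-fold genes. Fas, a death receptor below the filter on low values, had 135 and 1 reads, a ratio of 41.7 (7.37 to 1661). Bax was at 14.6 and 9.42 RPM, a ratio of 1.55 (1.39 to 1.73). The caspase activator Apaf1, at 11.5 and 11.8 RPM, had a ratio of 0.973 (0.878 to 1.08), and the nuclease gene Aen, at 41.1 and 41.3 RPM, had 0.994. Cdkn1a (p21), the classic arrest target of p53, had 304 and 53 reads, a ratio of 1.77 (1.32 to 2.42).

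Around Brca1 and Brca2, the 30 genes of homologous recombination held 19 higher and 11 lower in IV 5% O2, 2 (6.67%) at least 2-fold higher and 3 (10%) at least 2-fold lower, beside 18.7% and 9.22% of all genes. Their median was 0.32 as deposited, 0.07 above the median gene with 15 genes on either side of it, and 0.01 with median-ratio scaling. Swi5 and Sfr1, which form a complex of this pathway, lay on opposite sides. Sfr1, the highest of the list, was at 468 RPM for IV 5% O2 against 112 RPM for IV 20% O2, 4.19-fold higher (4.07 to 4.32). Swi5, with only Sem1 below it in the list, was at 13.8 and 63.9 RPM, 4.62-fold lower (4.35 to 4.90). Rad52, a mediator of strand annealing, was at 49.3 and 20.1 RPM, 2.46-fold higher (2.28 to 2.65). Brca1 and Brca2 lay inside this spread, at 0.26 and 0.09.

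The competing route, end joining, had a higher median than the recombination genes. Its 10 genes were 8 higher and 2 lower, 3 (30%) at least 2-fold higher and none at least 2-fold lower, beside 18.7% and 9.22% of all genes. The median of end joining was 0.60 as deposited (0.34 above the median gene) and 0.29 with median-ratio scaling. Nhej1, which aligns the ends for ligation, was at 29.8 RPM for IV 5% O2 against 7.29 RPM for IV 20% O2, 4.09-fold higher (3.64 to 4.62), and the gap-filling polymerase gene Poll was at 78.5 and 26.2 RPM, 3.003-fold higher (2.82 to 3.20). Lig4, the ligase of this route, was at 58.3 and 91.7 RPM (log2 difference -0.64). Prkdc, the kinase of this route, named after its values were seen, was at 21.3 and 42.8 RPM, lower by 2.01-fold in RPM (1.90 to 2.14) with a log2 difference of -0.98, just short of the count.

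Taking each gene of the 12 lists once and leaving out the members, 182 genes were tested. Of these, 125 (68.7%, beside 62.6% of all genes) were higher and 57 lower in IV 5% O2, and 99 lay above and 83 below the median gene. Their median was 0.36 as deposited, 0.11 above the median gene. Of the 182, 25 (13.7%) were at least 2-fold higher against 18.7% of all genes, and 12 (6.59%) at least 2-fold lower against 9.22%. The medians of 9 of the 12 lists lay above the median gene. The members' median of 0.17 lay below it, with 3 of the 8 above it. As a value measured beside these, the 10 markers of proliferating cells, many of them genes of DNA replication, had a median of 0.66 (0.40 above the median gene) with 9 higher in IV 5% O2, and the part of this in the members' values was not tested.

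**Figure D4:**
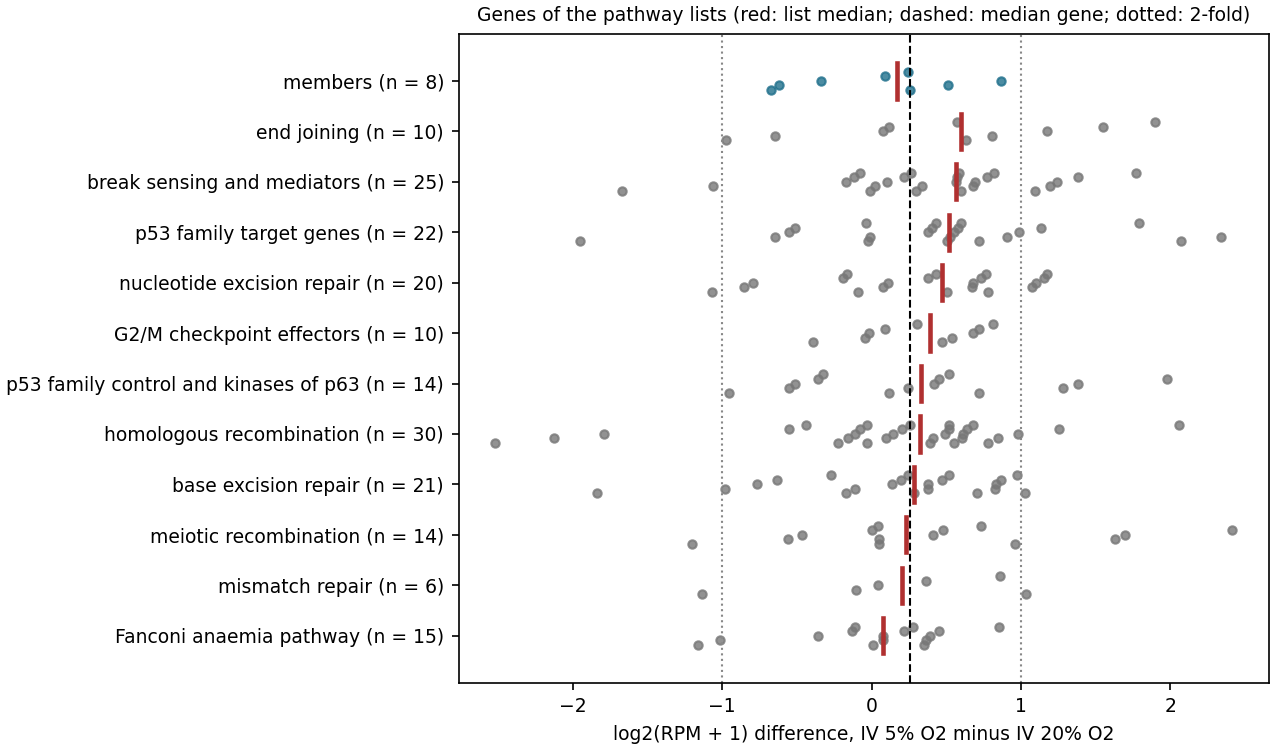
Log2(RPM + 1) difference, IV 5% O2 minus IV 20% O2, of each tested gene of the members and of 11 pathway lists (1 point per gene, red bar the list median, dashed line the median gene at 0.26, dotted lines 2-fold; a gene in more than 1 list is drawn in each). The members (median 0.17) and the G2/M checkpoint effectors (0.39) stay inside the dotted lines, past which lie 18.7% (higher) and 9.22% (lower) of all genes tested. End joining (0.60) has the highest list median.

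The members' places around the median gene were also read under each setting, although most settings could hardly move them. Scaling a whole column by a constant shifts a member and the median gene nearly alike. The filters and the summing of rows leave a member's own difference unchanged. The narrow ranges below are therefore largely fixed by the measure and are no check of the differences. Relative to the median gene, Atr stayed between -0.96 and -0.81 over all settings, Trp53 between -0.96 and -0.65, and Atm between -0.63 and -0.48. Chek2 stayed between 0.48 and 0.66 and Chek1 between 0.22 and 0.32. Brca2 stayed between -0.21 and -0.10, while Trp63 (-0.04 to 0.04) and Brca1 (-0.03 to 0.07) lay on either side of 0.

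**Figure D5:**
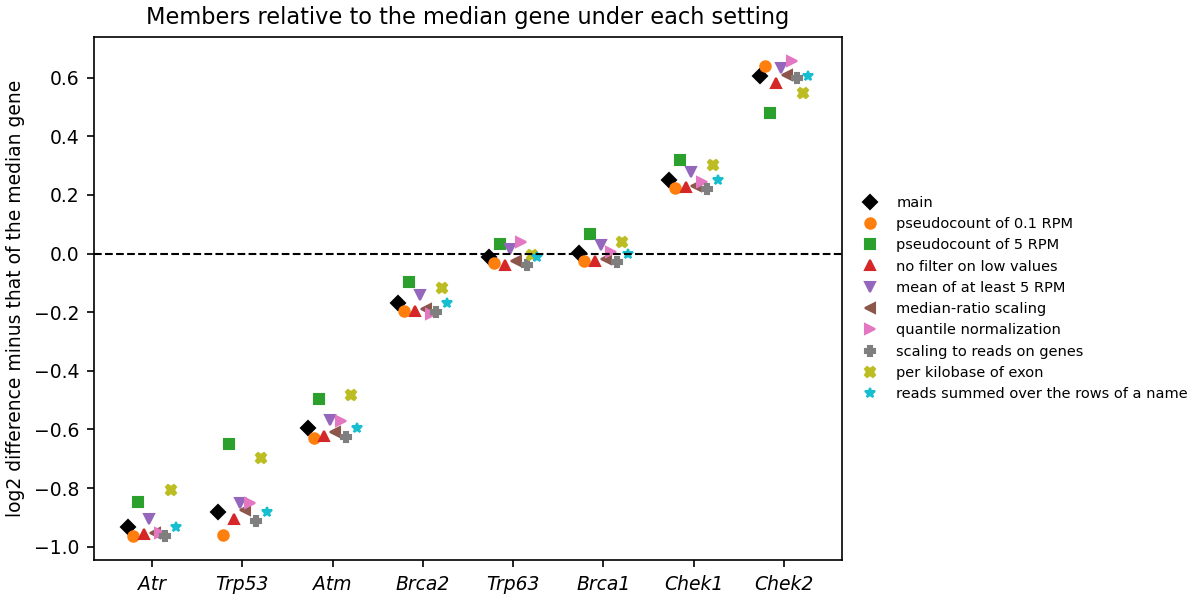
Difference of each member minus that of the median gene (log2 scale, IV 5% O2 minus IV 20% O2) under the values as reported (main) and 9 other settings, 1 symbol per setting. Atr, Trp53, Atm and Brca2 are below the dashed line and Chek1 and Chek2 above it under each of these settings, and Trp63 and Brca1 straddle it.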

How the data were processed

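RNA-seq of class IV oocytes cultured in 5% O2 (2 libraries) and in 20% O2 (2 libraries) was analysed; the methylation libraries of the series were not used here. The libraries were made from ribosomal-RNA-depleted total RNA with dUTP strand marking. Per the submitters' processing notes and the methods, the authors trimmed reads with Trim Galore (0.2.8 or 0.3.5), aligned them to GRCm38 with TopHat2 2.0.9 and quantified transcripts merged over exons in SeqMonk. The deposited values are log2 and hold 1 column per condition. Undone from log2, they were whole multiples of 1 step per column, which is RPM without a length correction, although the table is named for RPKM and the methods speak of correcting for length, so the levels per kilobase given here rest on this reading of the values; how the libraries were combined is not given in the sources used here. A gene without reads was listed at 0.9 of a read. In the table, 1 further value column belongs to none of the mapped samples and was not used.

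Reads and RPM were recovered with Python 3.11.15, numpy 2.4.6 and pandas 2.3.3, and exact intervals computed with scipy 1.17.1. Of the rows, 16383 were matched to GENCODE mouse genes by coordinates and 170 by name for exon lengths. Genes averaging at least 1 RPM were compared for size; a fold is a ratio of RPM, a difference is on log2(RPM + 1), which understates the change of low genes, and past 2-fold means a difference of at least 1. With 1 column per condition no model was fitted and no p-value computed. The named genes were the 8 members, their direct partners and, from each other list, up to 2 genes past 2-fold in each direction with the largest differences and the gene with the highest mean RPM; 1 gene that the rule names is not reported here. The members and lists were chosen with earlier results of these data known; the neighbours, the motifs and the checks of repeated and overlapping exons were added after the table was opened. Scripts were tested on simulated data. Other pseudocounts, filters and scalings were tried.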

Additional observations from a re-analysis of the deposited data

How the results depend on the processing

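Of the values for single members, all 3 other scalings moved each of the 8 differences by more than counting error, since they also moved the median gene (0.26 as deposited, -0.04 with the median ratio, 0.06 with quantiles and 0.10 with the reads on genes). With median-ratio scaling the log2 differences were -0.064 for Trp63, -0.91 for Trp53, -0.65 for Atm, -0.99 for Atr, 0.19 for Chek1, 0.57 for Chek2, -0.059 for Brca1 and -0.23 for Brca2. With quantile normalization they were 0.094, -0.79, -0.52, -0.90, 0.30, 0.71, 0.060 and -0.15, and with scaling to the reads on genes 0.064, -0.81, -0.52, -0.86, 0.32, 0.70, 0.072 and -0.10, in the same order of genes. A pseudocount of 5 RPM gave -0.46 for Trp53 and 0.67 for Chek2, and values per kilobase of exon gave -0.60 for Atr. No setting put a member past 2-fold. Between 2 and 4 members and between 7 and 10 of the 12 lists lay above the median gene over the settings. Over 9 alternatives, 72 of 108 list medians stayed between the median lower and the median upper counting limit of their genes. The 36 others fell nearly all under the 3 other scalings, as did all 7 that changed sign. The remaining settings change a ratio of the columns little, so the count of 72 is no measure of stability.

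The background counts moved more. Genes at least 2-fold higher in IV 5% O2 numbered 2753 as reported, 1202 with a pseudocount of 5 RPM, 1700 by the median ratio, 1764 by quantiles, 1691 among genes averaging at least 5 RPM and 1609 per kilobase of exon. Genes at least 2-fold lower numbered 1356 as reported, 706 with a pseudocount of 5 RPM and 899 per kilobase of exon, but 2031 by the median ratio, 1869 by the reads on genes and 1866 by quantiles. The higher genes were 67.0% of those past 2-fold as deposited, 45.6% by the median ratio, 48.6% by quantiles and 56.5% by the reads on genes. No paired analysis was possible because each condition has 1 column for both of its libraries; leaving out a library and a replicate block were not run for the same reason. The IV 20% O2 column was 3.23 times shallower, and its floor of 3 reads was 0.0734 RPM against 0.0227 RPM in IV 5% O2.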

Other observations

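Among repair pathways farther from the 8 genes, nucleotide excision repair, which removes bulky lesions, had 14 of 20 genes higher in IV 5% O2 and 6 lower. Of the 20, 4 (20%) were at least 2-fold higher and 1 (5%) at least 2-fold lower, beside 18.7% and 9.22% of all genes. The median log2 difference of this list was 0.47 as deposited (0.21 above the median gene) and 0.16 with the median ratio. Gtf2h1, a subunit of the repair factor TFIIH, was at 108 RPM for IV 5% O2 against 47.3 RPM for IV 20% O2, a ratio of 2.29 (2.18 to 2.40), and another subunit, Gtf2h5, was at 19.2 and 41.4 RPM, 2.16-fold lower (2.03 to 2.30). Xpa, which verifies the lesion, was at 12.8 and 5.21 RPM. Ddb1, which recognises damage with DDB2, had the highest mean RPM of the list, 735 and 697 RPM, a log2 difference of 0.08 as deposited that fell below 0 under the other scalings (-0.24 with the median ratio, -0.12 with quantiles, -0.11 with the reads on genes). Base excision repair, which removes oxidised and deaminated bases, had 14 of 21 genes higher and 7 lower. In each direction 1 gene (4.76%) was past 2-fold, beside 18.7% of all genes higher and 9.22% lower. The median of base excision repair was 0.29 as deposited (0.03 above the median gene), -0.03 with median-ratio scaling. Its polymerase gene Polb was at 70.6 and 34.2 RPM, 2.06-fold higher (1.95 to 2.19), and the glycosylase gene Neil1 had 3 reads in IV 5% O2 and 109 in IV 20% O2, a ratio of IV 20% O2 to IV 5% O2 of 117 with a counting interval from 39.2 to 579. Smug1, a uracil glycosylase with the highest mean RPM of the list, was at 97.5 and 110.1 RPM.

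The Fanconi anaemia pathway, which opens crosslinks for recombination, had 10 of 15 genes higher and 5 lower, none at least 2-fold higher and 2 (13.3%) at least 2-fold lower, beside 18.7% and 9.22% of all genes. It had the lowest list median, 0.07 as deposited (-0.18 relative to the median gene) and below 0 under the other scalings (-0.23 with the median ratio, -0.08 with quantiles, -0.11 with the reads on genes). The ubiquitin ligase gene Fancl was at 6.27 RPM for IV 5% O2 against 15.3 RPM for IV 20% O2, with 13.7% of its exon bases opposite Vrk2, and the core complex gene Fancg at 3.72 and 8.56 RPM. Of 6 mismatch repair genes, 4 were higher and 2 lower (median 0.20 as deposited, -0.05 relative to the median gene, -0.10 with the median ratio). Msh3, at 113 and 54.9 RPM, and Pms2, at 9.21 and 21.4 RPM, were past 2-fold on opposite sides. Each made up 16.7% of the list, beside 18.7% of all genes higher and 9.22% lower. Msh6 was at 147 and 114 RPM. Of 14 genes of meiotic recombination in the table, out of 16, 11 were higher and 3 lower, 3 (21.4%, beside 18.7% of all genes) at least 2-fold higher and 1 at least 2-fold lower (median 0.23 as deposited, -0.03 relative to the median gene, -0.02 with quantiles). The synaptonemal complex genes Sycp3 (123 and 22.3 RPM, 5.52-fold higher, 5.16 to 5.90) and Sycp1 (32.5 and 9.35 RPM, 3.48-fold, 3.13 to 3.87) were highest, with 52.2% of the exon bases of Sycp3 opposite Chpt1. Mlh3, which resolves crossovers, was at 6.32 and 15.9 RPM, 2.51-fold lower (2.26 to 2.79).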
